A study of Mus musculus with 6 samples.

Results

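The respiratory chain subunits were taken from the deposited expression table by gene symbol. All symbols starting with mt- were included, together with the nuclear subunit families Nduf (a, b, c, s and v), Sdha to Sdhd, Uqcr, Cox4 to Cox8 and Atp5. The rule found 100 of the 21936 listed genes, of which 13 are encoded by mitochondrial DNA and 87 by the nucleus. They divide into 43 subunits of complex I, 4 of complex II, 9 of complex III, 24 of complex IV and 20 of complex V. Ndufa4 and its paralog Ndufa4l2 are counted here with complex IV, to which the Ndufa4 protein is now assigned. The rule also caught 2 symbols that end in -ps (Cox5b-ps and Ndufb1-ps) and a second row named Atp5o.

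The study profiled polyadenylated RNA of PAM212 cells, a mouse keratinocyte line, kept in DMEM medium with 10% fetal bovine serum. The 3 overexpression libraries came from PAM212 cells infected with a lentivirus that carries the mouse miR-28-3p gene. The 3 control libraries came from PAM212 cells whose treatment label reads untreated, and the labels do not say whether they received an empty virus. The labels also leave it unsaid whether replicates were separate cultures, so p-values measure the spread between these libraries, which may be technical. The cell line is a single established line, and the series design line speaks of melanocytes where the sample labels speak of keratinocytes. Of 10 keratinocyte markers, Krt14, Itga6, Cdh1 and Dsp were detected in every library and Krt5 had 0 counts in every library, and of the 9 tested 5 were higher and 4 lower with overexpression. The 8 melanocyte markers summed to 7.33 to 8.22 CPM with overexpression and 8.05 to 9.78 CPM in controls, with Tyr and Kit at 0 counts throughout, and the 2 tested, Mitf and Pmel, were lower. The 8 fibroblast markers summed to 16.2 to 17.1 CPM with overexpression and 43.3 to 52.0 CPM in controls, nearly all of it Pdgfra, with Lum and Thy1 at 0 throughout and the 2 tested, Pdgfra and Col1a1, lower. The part of these marker changes in the subunit results was not tested. In bulk RNA, a change in the kinds of cells and a change of RNA per cell cannot be told apart.

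Complexes I to IV of the inner mitochondrial membrane pass electrons from NADH and succinate to oxygen, and complexes I, III and IV pump protons while doing so. Complex V, the ATP synthase, uses the proton gradient to make ATP. Complexes I, III, IV and V are built from subunits of both genomes, whereas complex II is entirely nuclear. The mitochondrial genes are transcribed as long precursors from both strands and cut into single RNAs, and the nuclear genes are transcribed one by one, with NRF1 and the ETS factor GABP as known regulators of many of them. In epidermis, keratinocytes draw on respiration for ATP and for the signals of differentiation.

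The overexpressed microRNA is shown with its seed, bases 2 to 8, in capitals, as RefSeq gives it for GRCm38.p6 at chr16:24827908-24827929 on the plus strand.
mmu-miR-28a-3p: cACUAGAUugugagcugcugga
The 7 bases that pair with this seed, ATCTAGT, were searched in the longest annotated 3' UTR of each gene. They were found in 3 of 75 tested nuclear subunits (4%), against 757 of 11648 tested genes (6.5%), and the median 3' UTR was 203 bases long for the subunits and 1196.5 bases for all genes. The sites of these 3 subunits are printed with the paired bases in capitals, in the sense of the messenger RNA.
Ndufv2: tcctggcagtaATCTAGTaacttgcagct
Ndufb8: tagtctaggctATCTAGTgagtttgaggc
Sdhc: gactctttggaATCTAGTgacaggtgggt
Ndufv2, a core iron-sulfur subunit of complex I, was lower by a log2 fold change of -0.44. Sdhc, a membrane anchor of complex II, had -0.64. Ndufb8, an accessory subunit of the membrane arm of complex I, was higher at 0.40. The 3 genes with a site thus did not move in 1 direction.

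Depth was similar in both groups, with 14309898 to 16383374 counted reads in the overexpression libraries and 14706283 to 15385151 in the control libraries. The libraries differed in 2 respects that touch the subunits. Ribosomal protein genes took 4.22 to 4.33% of counts with overexpression and 8.997 to 9.16% in controls, and the deposited length of the gene averaged over all counted reads was 6021 to 6050 bases with overexpression and 5091 to 5119 bases in controls. Across all tested genes, the median log2 fold change was -0.70 for genes over 600 and up to 1000 bases long, -0.59 up to 2000 bases, -0.43 up to 3000 bases and 0.37 above 6000 bases. Most subunits are short, with a median deposited length of 1327 bases against 4526 bases for all tested genes. For some genes the deposited length is well above that of the longest GENCODE transcript (1756 against 421 bases for Atp5e), for others equal (908 for Ndufb11). All values below with the length trend removed rest on the deposited lengths. Levels below are CPM, counts scaled to library size with TMM factors, unless FPKM (per kilobase of gene length) is named. Log2 fold changes are overexpression over control from edgeR's quasi-likelihood test, a call is an adjusted p (Benjamini-Hochberg over 11809 genes) under 0.05, and ± on a log2 fold change is its standard error from the spread of the 3 libraries of each group.

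Of the 100 subunits, 89 passed the filter on low counts and 4 had 0 counts in every library. With overexpression 55 tested subunits were lower, 13 were higher and 21 were not called. Over all tested genes 43.9% were called lower and 42.1% higher (86% in either direction), so a call alone says little, and the share of subunits called lower was above the background. In 56 tested subunits every overexpression library lay below every control and in 13 above, against 43.8% and 42.2% of all genes. The median log2 fold change was -0.34 for the subunits and -0.03 for all genes. This excess of falls was not kept when the common dependence on gene length was taken out of the counts. Then 49 subunits were higher and 18 lower, with a median of 0.26, against 42.9% higher and 42.3% lower of all genes. Upper quartile scaling moved the median of all genes by more than 0.1, to -0.26, and the split of all calls to 3961 higher and 6288 lower, against 4975 and 5184, and gave 6 subunits higher and 74 lower, against 33.5% and 53.2% of all genes.

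The 13 mitochondrial genes did not move together. Of the 11 tested, mt-Nd1 and mt-Nd2 were higher, 6 were lower and 3 were not called, with a median log2 fold change of -0.50. That is 18.2% higher and 54.5% lower, against 42.1% and 43.9% of all tested genes. With the length trend removed 6 were higher and 2 lower, since mt-Co1 (0.32), mt-Cytb (0.21) and mt-Atp6 (0.34) turned and mt-Nd5 was called higher (1.16). mt-Nd1 and mt-Nd2 kept their direction, mt-Nd4 and mt-Co2 stayed lower by less (-0.22 and -0.16), and mt-Nd3 lost its call (0.28). The first genes along the mitochondrial DNA after the ribosomal RNAs, mt-Nd1 and mt-Nd2, encode membrane subunits of complex I. mt-Nd1 was at 3376, 3379 and 3403 CPM in the overexpression libraries and 2524, 2466 and 2643 CPM in the control libraries. mt-Nd2 was at 1913, 1831 and 1930 CPM with overexpression and 1413, 1375 and 1489 CPM in controls. All overexpression libraries stood above all controls for both genes, at log2 fold changes of 0.41 ± 0.03 (adjusted p = 1.11e-28, edgeR) and 0.41 ± 0.04 (adjusted p = 2.14e-20, edgeR). Their ratio to each other hardly differed: log2(mt-Nd2/mt-Nd1) was -0.84 ± 0.04 with overexpression and -0.84 ± 0.01 in controls (SD, n = 3 each, exact permutation p = 1).

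mt-Co1, the catalytic subunit of complex IV and the most abundant member, had 6835, 6801 and 6843 CPM with overexpression and 8355, 8106 and 8491 CPM in controls. mt-Cytb, the cytochrome b of complex III, had 3170, 3126 and 3248 CPM with overexpression and 4451, 4334 and 4572 CPM in controls. Both were lower without overlap, at -0.29 ± 0.02 and -0.48 ± 0.03 (adjusted p = 2.73e-24 and 3.88e-33, edgeR). mt-Nd4, another complex I subunit, had 1011, 942 and 1062 CPM with overexpression and 1763, 1753 and 1955 CPM in controls, a larger fall than that of mt-Co1 or mt-Cytb (-0.86 ± 0.07, adjusted p = 0.000259, edgeR). Within 1 library, free of any scaling between libraries, log2(mt-Nd1/mt-Co1) was -1.01 ± 0.01 with overexpression and -1.71 ± 0.02 in controls (SD, n = 3 each, exact permutation p = 0.1, the smallest that 3 against 3 can give). The complex I subunits thus did not share a direction, with mt-Nd1 and mt-Nd2 on one side and mt-Nd4 on the other.

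The calls of mt-Nd5 and mt-Nd6, also of complex I, changed without control replicate 3. mt-Nd5 had 1833, 1617 and 1873 CPM with overexpression and 934, 889 and 1664 CPM in controls (0.61 ± 0.30, adjusted p = 0.119, edgeR). mt-Nd6 had 223, 211 and 241 CPM with overexpression and 274, 272 and 437 CPM in controls (-0.54 ± 0.23, adjusted p = 0.0962, edgeR). Control replicate 3 was the highest control for both genes, and for mt-Co3, where it had 45.7 CPM beside 17.2 and 21.8 CPM in the other two controls and 8.94, 12.5 and 10.1 CPM with overexpression (-1.42 ± 0.44, adjusted p = 0.054, edgeR). Without that library mt-Nd5 was called higher at 0.96 (adjusted p = 0.00112, edgeR), mt-Nd6 lower at -0.27 (adjusted p = 1.18e-09) and mt-Co3 lower at -0.88 (adjusted p = 7.26e-10), and the mitochondrial genes called higher became 4. With all libraries kept, mt-Co3 and mt-Nd6 were also called lower by DESeq2 (adjusted p = 0.0024 and 0.037), by limma, and by edgeR with upper quartile scaling. Neither was called with the length trend removed (-0.62 and 0.38). Leaving out control replicate 1 also gave a call for mt-Co3 (-1.68, adjusted p = 0.038, edgeR). The ends of mt-Nd5 and mt-Nd6 overlap by 14 bases on opposite strands, and no label or header states the strand setting of the counting, so reads of the pair may be shared. log2(mt-Nd6/mt-Nd5) was -2.98 ± 0.06 with overexpression and -1.80 ± 0.11 in controls (SD, n = 3 each, exact permutation p = 0.1).

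**Figure D1:**
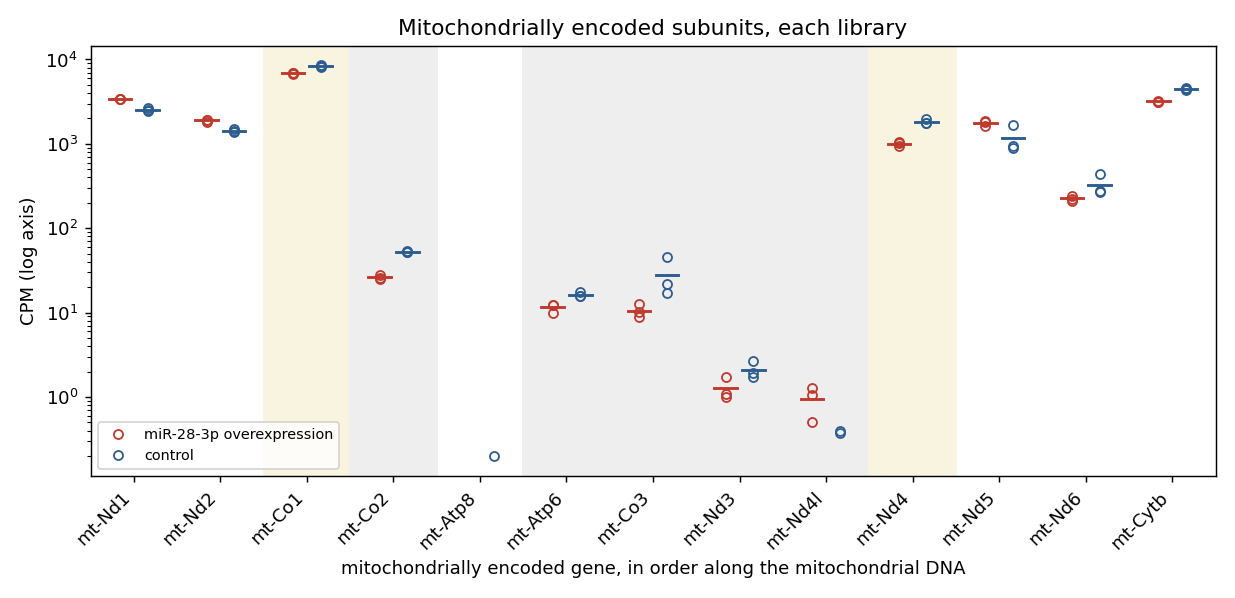
CPM on a log axis of the 13 mitochondrially encoded genes in each library, in their order along the mitochondrial DNA, with overexpression left of control. Open circles are libraries and bars are means where all 3 libraries are above 0 (libraries at 0 are not drawn). Grey bands mark genes covered by a nuclear copy over nearly their whole length, and pale yellow bands mark mt-Co1 and mt-Nd4, covered in part. mt-Nd1 and mt-Nd2 are higher with overexpression, mt-Co1, mt-Nd4 and mt-Cytb lower, and the genes in grey bands all lie below 100 CPM.

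The mitochondrial genes with few counts were, apart from mt-Atp8, those of which the nuclear genome holds a whole annotated copy. In GENCODE release M21 (GRCm38), mt-Co2, mt-Atp6, mt-Co3, mt-Nd3 and mt-Nd4l are covered over 98.99 to 99.9% of their length, at 99.7 to 100% identity, by unprocessed pseudogenes on chromosome 1. The copy of mt-Co2, Gm28661, lies at chr1:24614885-24615565 and that of mt-Nd4, Gm28439, at chr1:24611535-24612410. mt-Nd4 is covered over 63.6% and mt-Co1 over 31.3%, and mt-Nd1, mt-Nd2, mt-Nd5, mt-Nd6 and mt-Cytb over 0%. The place where the shared stretch of 479 bases begins within the 1545 bases of mt-Co1, at base 1067 of the transcript, is printed with the shared bases in capitals, since reads of this stretch match both loci.
mt-Co1: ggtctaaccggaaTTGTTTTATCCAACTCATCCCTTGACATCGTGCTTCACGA
Gm29216: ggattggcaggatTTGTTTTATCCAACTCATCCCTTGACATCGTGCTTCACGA
The fully covered genes had few counts in both groups. mt-Co2, the copper-binding subunit of complex IV that takes electrons from cytochrome c, had 25.2, 28.1 and 25.8 CPM with overexpression and 53.3, 52.4 and 52.8 CPM in controls, far under mt-Co1. mt-Atp6, the proton channel subunit of complex V, had 9.88, 12.3 and 12.4 CPM with overexpression and 15.7, 17.7 and 15.8 CPM in controls. Their log2 fold changes were -1.002 ± 0.05 and -0.50 ± 0.12 (adjusted p = 1.3e-21 and 3.02e-05, edgeR), without overlap between the groups. mt-Nd3 had 1.08, 1.72 and 1.01 CPM with overexpression and 2.70, 1.71 and 1.91 CPM in controls, with overlap, and its call (-0.73 ± 0.24, adjusted p = 0.0291, edgeR) was lost without overexpression replicate 1, overexpression replicate 3 or control replicate 1. mt-Nd4l summed to 43 counts over the overexpression libraries and 12 over the controls and mt-Atp8 to 0 and 3 counts, too few to be tested. No label or header states how reads with 2 matching loci were counted, and the part of the copies in the levels and changes of these genes was not tested.

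Summed within a library, the 13 mitochondrial genes took 1.78, 1.74 and 1.80% of counts with overexpression and 2.05, 1.99 and 2.20% in controls, or 1.78 ± 0.03% and 2.08 ± 0.11% (SD, n = 3 each). The 87 nuclear subunits took 0.810, 0.817 and 0.827% with overexpression and 0.990, 0.997 and 0.992% in controls. Both shares were lower with overexpression without overlap (exact permutation p = 0.1 each, two-sided). Over the 5 mitochondrial genes with no nuclear copy (mt-Nd1, mt-Nd2, mt-Nd5, mt-Nd6 and mt-Cytb) the share was 1.01 ± 0.03% with overexpression and 1.02 ± 0.08% in controls (SD, n = 3 each, groups overlapping). As a share of summed FPKM, the mitochondrial genes stood at 5.47 ± 0.09% with overexpression and 5.28 ± 0.28% in controls (SD, n = 3 each), so the sign of the difference turned with the scale.

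The balance of the genomes, log2 of summed mitochondrial over summed nuclear subunit counts, was 1.14, 1.09 and 1.12 with overexpression and 1.05, 1.00 and 1.15 in controls. The groups overlapped, and the difference of 0.05 ± 0.05 was not distinguishable from the spread (exact permutation p = 0.4, two-sided). The groups separated, however, when FPKM were summed in place of counts, with a ratio of 1.74 ± 0.03 with overexpression and 1.51 ± 0.08 in controls. They also separated without the mitochondrial genes that have a nuclear copy, at 0.31 ± 0.03 with overexpression and 0.04 ± 0.11 in controls (SD, n = 3 each, exact permutation p = 0.1 each, the smallest possible). The single complexes went apart beneath this total. In complex I the log2 ratio was 2.41 ± 0.06 with overexpression and 1.70 ± 0.15 in controls. In complex IV it was 2.30 ± 0.05 with overexpression and 2.01 ± 0.03 in controls. In complex III, with mt-Cytb as its only mitochondrial gene, it was 1.94 ± 0.01 with overexpression and 2.29 ± 0.05 in controls. In complex V it was -8.48 ± 0.18 with overexpression and -7.86 ± 0.10 in controls, from few mitochondrial counts that all stand in genes with a nuclear copy or beside one. All 4 differences were without overlap (SD, n = 3 each, exact permutation p = 0.1 each, the smallest possible, so none can pass 0.05). In complex I the nuclear share of counts was 0.151% with overexpression and 0.231% in controls, while the means of mt-Nd1, mt-Nd2 and mt-Nd5 lay above their control means.

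**Figure D2:**
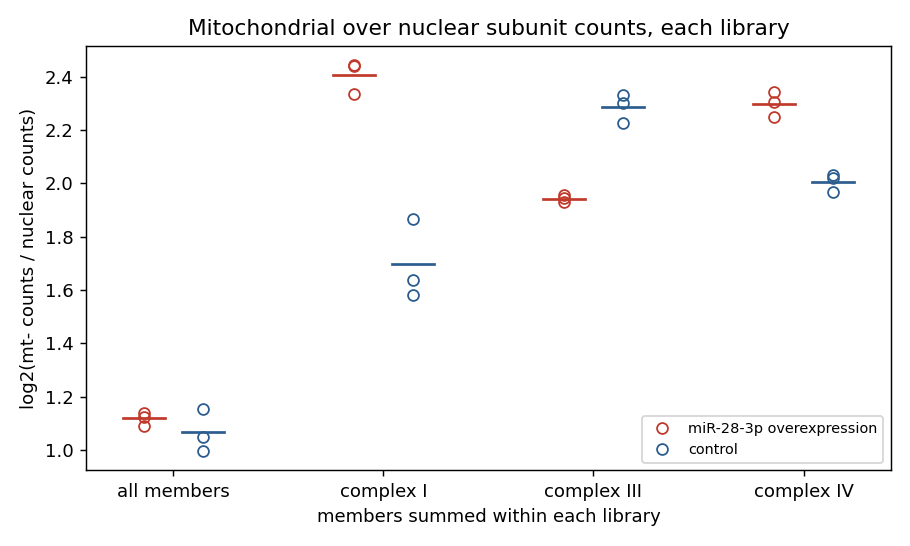
Log2 of summed mitochondrial over summed nuclear subunit counts within each library, for all members and for complexes I, III and IV, with overexpression left of control (circles are libraries, bars are means). The groups overlap for all members, while overexpression stands above control in complexes I and IV and below it in complex III.

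Of 78 tested nuclear subunits, 49 were lower, 11 higher and 18 not called with overexpression, with a median log2 fold change of -0.30. That is 62.8% lower and 14.1% higher, against 43.9% and 42.1% of all tested genes. The median level per gene length was 37.5 FPKM with overexpression and 49.3 FPKM in controls. With the length trend removed, 16 of the 49 were still called lower, 18 were called higher, and all 11 of those called higher stayed so, giving 43 higher and 16 lower in all. With upper quartile scaling 4 were higher (Ndufs1, Ndufb8, Atp5a1 and Atp5b) and 66 lower. With a 1.5-fold minimum 1 was higher, Ndufs1, and 22 were lower, against 23.4% and 27% of all genes.

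Set beside genes of like length, the nuclear subunits were spread as follows. Of 18 subunits up to 1000 bases long, 13 were lower (72.2%) and 0 higher, against 69.0% and 18.1% of all tested genes of that length, with a median log2 fold change of -0.38 against -0.78. Of 31 between 1000 and 2000 bases, 25 were lower (80.6%) and 2 higher (6.45%), against 65.4% and 19.6%, with a median of -0.55 against -0.59. Of 11 between 2000 and 3000 bases, 6 were lower and 3 higher (54.5% and 27.3%, against 58.8% and 26.6%), with a median of -0.11 against -0.43. Of 18 above 3000 bases, 5 were lower and 6 higher (27.8% and 33.3%, against 37.3% and 49.0%), with a median of 0.04 against 0.13. Up to 1000 bases the share called lower was thus near that of genes of that length, and between 1000 and 2000 bases it was larger. In both classes the share called higher was smaller and the median fall no larger. No test was made of these differences. The results below hold members that stand far from their length class and members that stand near it.

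**Figure D3:**
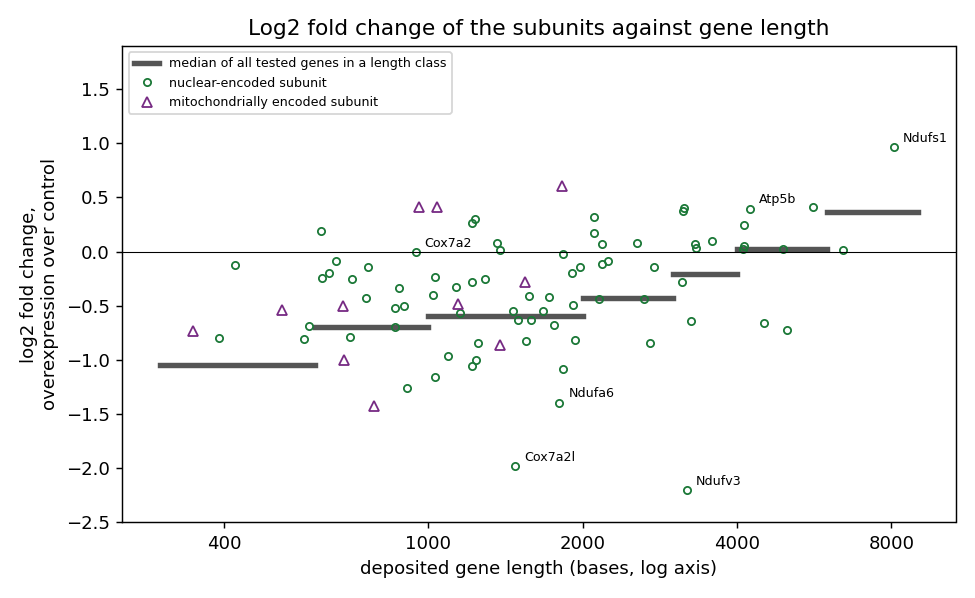
Log2 fold change (overexpression over control) of the tested subunits reported here against their deposited gene length in bases on a log axis. Green circles are nuclear subunits, purple triangles mitochondrial ones, and grey bars give the median of all tested genes in a length class. The bars climb with length, and most circles lie around them, with Ndufv3, Cox7a2l and Ndufa6 far below.

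Among the nuclear subunits, complex I had the most falls, by count and by share. Of its 36 nuclear subunits, all tested, 27 were lower, 3 higher and 6 not called, with a median of -0.50. That is 75% lower and 8.33% higher, against 43.9% and 42.1% of all tested genes. The counts were 11 lower and 16 higher once the length trend was removed, against 42.3% and 42.9% of all genes. The 7 nuclear core subunits, which carry the flavin and the iron-sulfur clusters, had 5 lower and 1 higher, and the 29 accessory subunits 22 lower and 2 higher.

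Ndufv3, an accessory subunit beside the NADH-oxidising flavoprotein, had the largest fall of all subunits. Its level was 18.3, 18.1 and 17.7 CPM with overexpression and 82.98, 83.96 and 82.38 CPM in controls. The 3 overexpression libraries agreed within 1 CPM and lay far below every control, at a log2 fold change of -2.20 ± 0.02 (adjusted p = 1.32e-39, edgeR), and at -1.94 with the length trend removed. Ndufv1 and Ndufv2, the core partners of Ndufv3 in the flavoprotein, were lower by much less, at -0.43 ± 0.02 and -0.44 ± 0.02 (adjusted p = 2.5e-15 and 2.46e-16, edgeR), and neither was called with the length trend removed.

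Ndufa6, an accessory subunit of the LYR motif family in the matrix arm, had 21.3, 23.4 and 22.9 CPM with overexpression and 56.8, 63.5 and 58.2 CPM in controls (-1.40 ± 0.06, adjusted p = 6.02e-28, edgeR). Ndufb11, an accessory subunit of the membrane arm encoded on the X chromosome, had 40.6, 35.6 and 38.0 CPM with overexpression and 92.5, 87.5 and 92.4 CPM in controls (-1.26 ± 0.06, adjusted p = 3.72e-30, edgeR). Both were lower in every overexpression library than in any control and stayed called lower with the length trend removed, at -0.84 and -0.49. Ndufb9 (-1.16), Ndufa7 (-1.08) and Ndufb10 (-1.06), also accessory subunits, followed as falls of over 2-fold, all 3 still called lower with the length trend removed (-0.43, -0.53 and -0.38).

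Ndufs1, the largest iron-sulfur subunit of the core, moved the other way. It had 109, 103 and 109 CPM with overexpression and 55.3, 52.2 and 56.7 CPM in controls, the largest rise of any nuclear subunit (0.97 ± 0.05, adjusted p = 3.24e-27, edgeR). At 8086 bases it is also the longest subunit by deposited length, though its GENCODE transcript used in the search for copies has 2661 bases. With the length trend removed its log2 fold change was 0.63. Ndufb8 had 32.2, 39.2 and 34.4 CPM with overexpression and 27.8, 23.6 and 28.8 CPM in controls (0.40 ± 0.12, adjusted p = 4.16e-06, edgeR). Ndufa9, an accessory subunit near the quinone site, was higher at 0.32 ± 0.04 (adjusted p = 1.58e-06, edgeR), a call that was lost with upper quartile scaling at 0.09. Ndufb2, at 2.31 to 2.65 CPM with overexpression and 1.52 to 2.07 CPM in controls, had 0.41 ± 0.12 and was not called (adjusted p = 0.149, edgeR).

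**Figure D4:**
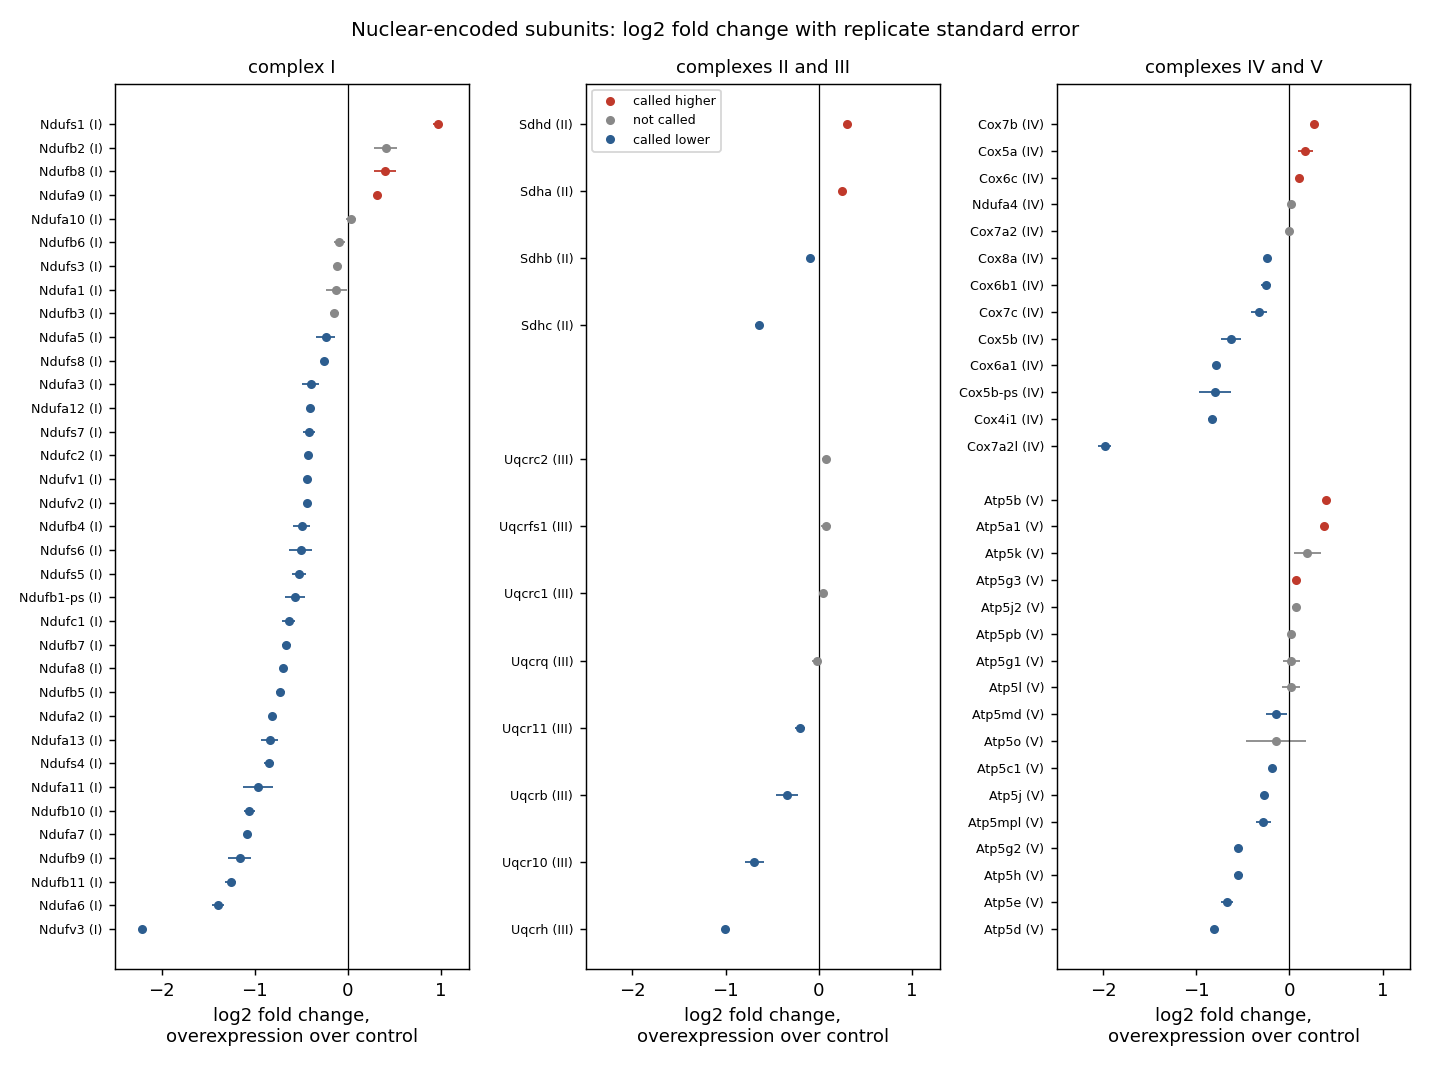
Log2 fold change (overexpression over control) of the tested nuclear subunits reported here with the standard error of the replicate spread, by complex (given in brackets) and sorted by size. Red points were called higher, blue points lower and grey points not called, at an adjusted p under 0.05. Complex I leans left, with Ndufv3 at -2.20 at the bottom and Ndufs1 at 0.97 at the top, and Cox7a2l stands alone at -1.98 in complex IV.

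Complex II, which is also the succinate dehydrogenase of the citric acid cycle, was split. Sdha, the flavoprotein that oxidises succinate, had 245, 240 and 246 CPM with overexpression and 205, 207 and 202 CPM in controls (0.25 ± 0.02, adjusted p = 1.24e-11, edgeR). The membrane anchors went apart. Sdhd had 142, 138 and 143 CPM with overexpression and 117, 113 and 112 CPM in controls (0.30 ± 0.02, adjusted p = 4.94e-11, edgeR), whereas Sdhc had 82.4, 77.6 and 80.3 CPM with overexpression and 129, 120 and 126 CPM in controls (-0.64 ± 0.04, adjusted p = 2.42e-21, edgeR). The groups did not overlap for any of the 3. The calls of Sdha and Sdhd were lost with upper quartile scaling, at 0.02 and 0.07. Sdhb, the iron-sulfur subunit, was lower by little (-0.09 ± 0.04, adjusted p = 0.04, edgeR), a call lost in 5 of 6 fits without 1 library, and at 0.37 with the length trend removed.

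In complex III, 4 of 8 nuclear subunits were lower, 0 higher and 4 not called, with a median of -0.11. The 50% called lower was near the 43.9% of all tested genes, of which 42.1% were higher. Removing the length trend left 7 higher and 1 lower, against 42.9% and 42.3% of all genes. The falls were in small accessory subunits, though not in all of them. Uqcrq, also small and accessory, was at -0.02 ± 0.05 and not called (adjusted p = 0.679, edgeR), with overlapping groups, and at 0.53 with the length trend removed. Uqcrh, the hinge protein at the cytochrome c1 side, had 68.1, 68.1 and 69.0 CPM with overexpression and 141, 136 and 135 CPM in controls (-1.004 ± 0.02, adjusted p = 5.43e-31, edgeR), and was lower also with the length trend removed (-0.33). Uqcr10 was lower at -0.69 ± 0.10 (adjusted p = 5.58e-16, edgeR) and Uqcrb at -0.34 ± 0.12 (adjusted p = 0.000161, edgeR), and both turned positive with the length trend removed (0.20 and 0.44). The catalytic Rieske protein Uqcrfs1, at 0.08 ± 0.06, and the core proteins Uqcrc1 and Uqcrc2, at 0.05 ± 0.03 and 0.08 ± 0.04, were not called (adjusted p = 0.0519, 0.0852 and 0.0521, edgeR), and their groups overlapped. These 3 had negative values with upper quartile scaling.

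In complex IV, 13 of 21 nuclear subunits were tested, with 8 lower, 3 higher and 2 not called and a median of -0.25. The shares were 61.5% lower and 23.1% higher, against 43.9% and 42.1% of all tested genes. Removing the length trend left 2 lower and 8 higher, against 42.3% and 42.9% of all genes. Cox7a2l, known as a factor that joins complexes III and IV into supercomplexes, had 122, 108 and 125 CPM with overexpression and 454, 477 and 472 CPM in controls. It was the second largest fall of all subunits (-1.98 ± 0.07, adjusted p = 2.17e-31, edgeR), with no overlap, and -1.36 with the length trend removed. Its paralog Cox7a2, the structural subunit, had 69.5, 66.8 and 71.1 CPM with overexpression and 69.5, 71.4 and 67.3 CPM in controls, with full overlap (-0.00 ± 0.04, adjusted p = 0.931, edgeR; 0.75 with the length trend removed). A processed pseudogene, Gm6969, matches 17.8% of the Cox7a2l transcript.

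Cox4i1, the largest nuclear subunit of complex IV, had 172, 185 and 192 CPM with overexpression and 323, 330 and 322 CPM in controls (-0.83 ± 0.05, adjusted p = 7.86e-34, edgeR; -0.22 with the length trend removed). Cox6a1 had 173, 179 and 182 CPM with overexpression and 297, 307 and 319 CPM in controls (-0.79 ± 0.04, adjusted p = 5.11e-33, edgeR), and 0.05 with the length trend removed. Cox7b, at 83.57, 79.998 and 82.81 CPM with overexpression and 67.0, 69.1 and 68.6 CPM in controls, was higher at 0.27 ± 0.02 (adjusted p = 7.73e-07, edgeR), a call lost with upper quartile scaling (0.04). Cox6c at 0.10 ± 0.03 and Cox5a at 0.17 ± 0.08, with overlapping groups for Cox5a, were called higher too (adjusted p = 0.0104 and 0.00961, edgeR), but stood at -0.13 and -0.06 with upper quartile scaling. Cox6b1 (-0.25) and Cox8a (-0.24) were lower and Ndufa4 (0.02) was not called. With the length trend removed Cox6b1 and Cox8a stood at 0.59 and 0.63. Cox5b-ps was lower at -0.80, but its 390 bases are 99.2% identical to Cox5b (-0.63), so these 2 genes may share reads.

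The tissue-restricted isoforms were near or at 0. Cox7b2, Cox8b, Cox8c and the second Atp5o row had 0 counts in every library, which allows up to 0.19 to 0.22 CPM in a library, by 3 counts each. Cox4i2 had 8 counts over the overexpression libraries and 4 over the controls, Cox6a2 had 2 and 6, Cox6b2 had 1 and 4, and Ndufa4l2 had 0 and 5. Cox7a1, the heart and muscle isoform of subunit 7a, had 1 count over the overexpression libraries and 21 over the controls. The ratio of overexpression to control for Cox7a1 was 0.0466 (exact 95% interval 0.00113 to 0.290, counting error only). A list of 8 striated muscle markers summed to 1.298, 1.254 and 2.27 CPM with overexpression and 19.8, 20.2 and 19.6 CPM in controls, with 3 of the 8 at 0 everywhere, and its part in the Cox7a1 counts was not tested. In both groups each isoform stood far below its ubiquitous partner (Cox4i1, Cox6a1, Cox6b1, Cox7a2, Cox7b, Cox8a and Ndufa4).

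In complex V, 17 of 18 nuclear subunits were tested, with 8 lower, 3 higher and 6 not called and a median of -0.14. The 47.1% called lower was near the 43.9% of all tested genes, and 17.6% were higher against 42.1%. Removing the length trend left 1 lower and 9 higher, against 42.3% and 42.9% of all genes. The catalytic head and the central stalk went apart. Atp5b, the catalytic beta subunit and the most abundant nuclear member in CPM, had 1750, 1694 and 1735 CPM with overexpression and 1300, 1323 and 1310 CPM in controls (0.40 ± 0.02, adjusted p = 2.83e-27, edgeR). Atp5a1, the alpha subunit, had 749, 779 and 775 CPM with overexpression and 591, 601 and 586 CPM in controls (0.37 ± 0.02, adjusted p = 4.96e-23, edgeR). Both pairs of groups were far apart, and both calls held with upper quartile scaling (0.17 and 0.14) and with the length trend removed (0.46 and 0.65). The 3 subunits of the rotating central stalk were lower. Atp5d, the delta subunit, had 182, 176 and 188 CPM with overexpression and 317, 327 and 318 CPM in controls (-0.82 ± 0.03, adjusted p = 1.57e-34, edgeR), Atp5e (epsilon) was at -0.67 ± 0.07 and Atp5c1 (gamma) at -0.19 ± 0.02 (adjusted p = 2.86e-18 and 5.74e-10, edgeR). With the length trend removed Atp5d stayed lower at -0.29, Atp5e was not called and Atp5c1 turned to 0.34.

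The 3 genes Atp5g1, Atp5g2 and Atp5g3 encode the same mature ring subunit c, and they were not called, lower and higher, at 0.02 ± 0.09, -0.55 ± 0.04 and 0.07 ± 0.03 (adjusted p = 0.753, 5.64e-18 and 0.0437, edgeR). Atp5g3 was at -0.16 with upper quartile scaling, and Atp5g2 was at 0.03 and not called with the length trend removed. Of the 9 outer stalk and membrane subunits 4 were lower and 0 higher, against 43.9% and 42.1% of all tested genes. Atp5h, among the 4, was at -0.55 ± 0.05 (adjusted p = 1.77e-20, edgeR) and at 0.08 with the length trend removed. The processed pseudogene Gm10250 matches 71.1% of its transcript. With the length trend removed the 1 nuclear complex V subunit called lower was Atp5d, so these 4 falls were not kept. Atp5k was then called higher at 1.06. Atp5k, at 11.5 to 15.2 CPM with overexpression and 10.7 to 13.1 CPM in controls, had 0.19 ± 0.15 and was not called (adjusted p = 0.124, edgeR; -0.04 with upper quartile scaling). As a share of counts the nuclear complex V subunits took 0.396% with overexpression and 0.394% in controls (exact permutation p = 0.4, groups overlapping). The share of nuclear complex IV subunits was 0.135% with overexpression and 0.216% in controls, without overlap (exact permutation p = 0.1). Such sums weigh abundant genes most. The complex V share holds the rises of Atp5b and Atp5a1 beside the falls of other subunits. In complex IV, Cox7a2l alone averaged 118 CPM with overexpression and 468 CPM in controls, and it enters the complex IV ratio above too.

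**Figure D5:**
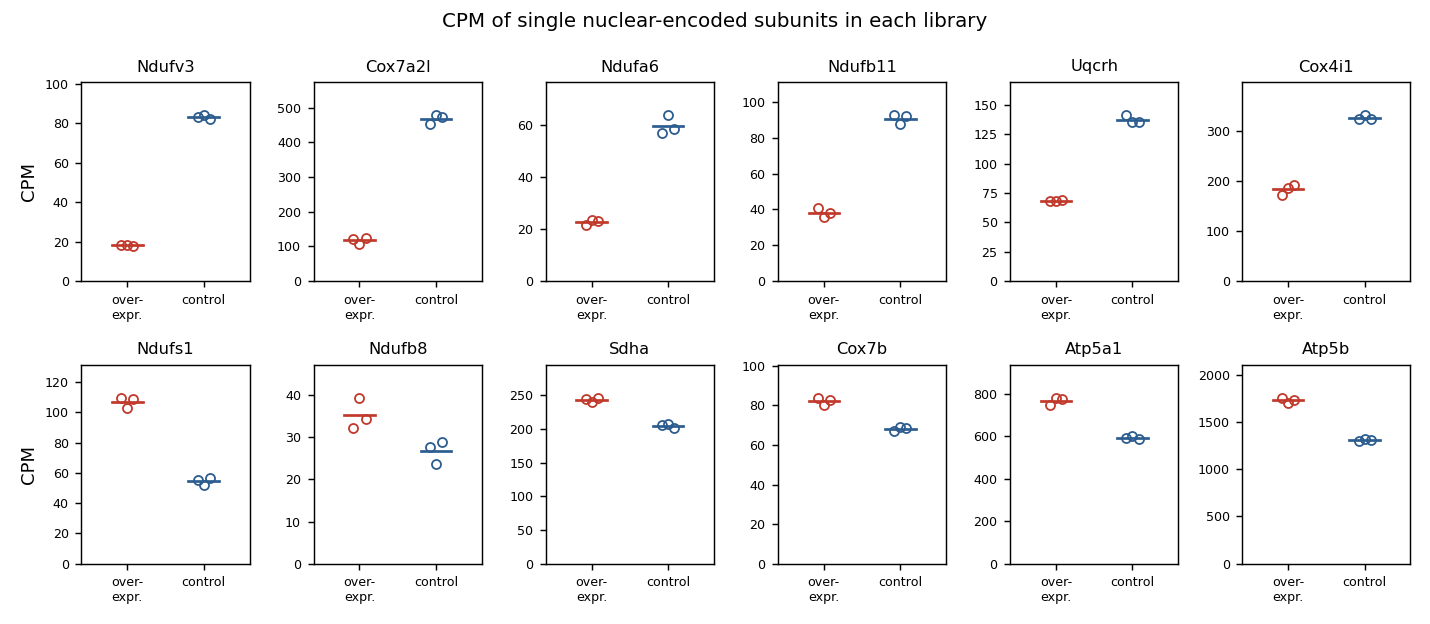
CPM of 12 nuclear subunits in each library, with overexpression left of control, circles for libraries and bars for means, each axis starting at 0. The top row shows subunits that were lower with overexpression (Ndufv3, Cox7a2l, Ndufa6, Ndufb11, Uqcrh and Cox4i1), the bottom row subunits that were higher (Ndufs1, Ndufb8, Sdha, Cox7b, Atp5a1 and Atp5b), and the groups do not overlap in any panel.

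The promoters of the nuclear subunits, 300 bases from 250 before to 50 after the start in RefSeq, were at hand for 69 of 87 members. The NRF1 core, searched as GCGCATGC or GCATGCGC, was found in 10 of 64 tested subunits (15.6%), against 6.22% of 9439 tested genes, and the ETS core, CCGGAAG or CTTCCGG, in 17 (26.6%) against 20.8%. By call, the NRF1 core was in 7 of 40 subunits called lower, in 0 of 8 called higher and in 3 of 16 not called. A match is a description and no site of binding. The promoters of Cox6a1, which fell, and of Atp5b, which rose, are printed with the motifs in capitals, the first with an NRF1 core, whose reverse form overlaps it and runs on into the next lower-case bases, and 1 ETS core, the second with none, at chr5:115348909-115349208 on the minus strand and chr10:128083057-128083356 on the plus strand (GRCm38.p6).
Cox6a1: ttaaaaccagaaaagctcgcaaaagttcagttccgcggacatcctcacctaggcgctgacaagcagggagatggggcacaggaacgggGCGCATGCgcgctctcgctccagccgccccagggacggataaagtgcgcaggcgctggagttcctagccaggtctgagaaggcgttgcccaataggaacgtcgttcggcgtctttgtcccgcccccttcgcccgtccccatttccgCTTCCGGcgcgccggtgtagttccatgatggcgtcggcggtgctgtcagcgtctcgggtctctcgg
Atp5b: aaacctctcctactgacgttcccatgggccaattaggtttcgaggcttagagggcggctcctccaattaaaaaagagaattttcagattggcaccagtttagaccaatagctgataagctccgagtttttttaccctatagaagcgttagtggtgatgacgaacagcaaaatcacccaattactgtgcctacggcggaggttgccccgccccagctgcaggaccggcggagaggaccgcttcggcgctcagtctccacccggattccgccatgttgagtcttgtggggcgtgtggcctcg

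Genes that build and serve the chain were read as lists, beside the background of 42.1% higher and 43.9% lower and the median of -0.03 over all genes, and no list was tested against other genes. Of 16 complex I assembly factors 5 were higher and 7 lower, with a median of -0.00 (10 higher and 4 lower with the length trend removed). Ndufaf4 was higher at 42.3, 43.0 and 48.5 CPM with overexpression and 16.02, 16.3 and 14.2 CPM in controls (1.53 ± 0.09, adjusted p = 2.87e-26, edgeR), and Acad9 by 0.89. Of 32 tested assembly factors of complexes II to V, 11 were higher and 16 lower (15 and 13 with the length trend removed), with Coa5 (1.08) and Cmc1 (-1.38), both complex IV factors, leading by p. Of 10 tested electron carriers and subunits outside the naming rule, 3 were higher and 4 lower (5 and 2 with the length trend removed). Cycs, the cytochrome c that links complexes III and IV, had 151, 151 and 159 CPM with overexpression and 46.7, 45.3 and 51.6 CPM in controls (1.68 ± 0.06, adjusted p = 1.84e-40, edgeR). Gpd2, the mitochondrial glycerol phosphate dehydrogenase, was higher by 1.05. Of 11 genes of coenzyme Q synthesis 3 were higher and 4 lower (6 and 3 with the length trend removed), with Pdss1 at 1.96 and Coq9 at -0.96. Upper quartile scaling moved these lists the other way. In the order given, it left 4 higher and 8 lower, 6 and 18, 2 and 6, and 1 and 7, against 33.5% and 53.2% of all genes.

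In the lists that act on the mitochondrial genome, and in that of the regulators of nuclear respiratory genes, the higher calls outnumbered the lower ones. Of 27 tested genes of mitochondrial transcription and RNA processing, 15 were higher and 10 lower, with a median of 0.37 (13 and 11 with upper quartile scaling). Lrpprc, which stabilises mitochondrial messengers, had 196, 196 and 196 CPM with overexpression and 89.0, 106 and 94.3 CPM in controls (1.03 ± 0.07, adjusted p = 1.2e-29, edgeR), while Hsd17b10, a subunit of the enzyme that cuts tRNAs free at one end, was at -0.98. Of 10 genes of mitochondrial DNA maintenance 5 were higher and 2 lower (4 and 4 with upper quartile scaling), with the DNA polymerase Polg at 1.46 and the thymidine kinase Tk2 at -1.70. Of 12 tested nuclear regulators of respiratory genes 9 were higher and 3 lower, with a median of 0.78 (8 and 3 with upper quartile scaling and with the length trend removed). Hcfc1, a coactivator at many housekeeping promoters, had 436, 429 and 415 CPM with overexpression and 98.9, 94.6 and 99.1 CPM in controls (2.13 ± 0.03, adjusted p = 2.6e-55, edgeR), and Gabpb2, a partner subunit of GABP, was at 1.86. Removing the length trend gave 16 higher and 5 lower for transcription and RNA processing, and 6 and 3 for DNA maintenance. Over all genes that setting gave 42.9% higher and 42.3% lower.

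For matrix and membrane lists the scaling mattered most in the list of carriers and Vdac channels, whose counts turned round. Of 19 genes of pyruvate dehydrogenase and the citric acid cycle, 13 were higher and 5 lower, with a median of 0.44 (11 and 5 with upper quartile scaling), Idh3a at 1.41 and the citrate synthase Cs at 0.71. Of 8 tested genes in a list of inner membrane carriers, uncoupling proteins and Vdac channels, 5 were higher and 2 lower (1 and 4 with upper quartile scaling). Slc25a5, which exchanges ADP for the ATP made by complex V, had 738, 726 and 751 CPM with overexpression and 221, 220 and 204 CPM in controls (1.78 ± 0.04, adjusted p = 1.49e-54, edgeR), and its paralog Slc25a4 was at 0.26. Of 9 cristae genes 5 were higher and 4 lower (4 and 4 with upper quartile scaling), with Opa1 at 1.15 and Phb at 0.81. Of 11 mitochondrial chaperones and proteases 6 were higher and 3 lower (5 and 4, and a median of -0.01, with upper quartile scaling), with Hspd1, the chaperonin HSP60, at 1.63 and the protease Lonp1 at -0.59. Removing the length trend gave 13 higher and 2 lower for the citric acid cycle list and 4 and 2 for the carriers. It gave 6 and 2 for the cristae genes and 7 and 1 for the chaperones and proteases.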

How the data were processed

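Messenger RNA of 3 miR-28-3p overexpression and 3 control libraries was analysed. The authors deposited raw read counts and FPKM per gene, per the file headers and read statistics that give the percent of bases at Q30. Their table of fold changes names its groups A and B only and was not used here. The submitters' processing notes list HISAT2, HTSeq and DESeq, with no version. The notes name mm9, but 21694 of 21894 genes matched by identifier, and all 100 members, have the coordinates of GENCODE M21 (GRCm38).

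Counts were tested with edgeR 4.0.16 in R 4.3.3 (filterByExpr with minimum count 10, TMM, robust quasi-likelihood F test, Benjamini-Hochberg over 11809 genes). The replicate error of a log2 fold change uses log2(CPM + 0.5). The length trend was removed with a loess fit (span 0.3) of each gene's edgeR log2 fold change on log2 of its deposited length, used as an offset. Ratios and shares were compared by two-sided exact permutation of 6 libraries. Copies were found with BLAST+ 2.17.0 (at least 100 bases and 98% identity) among GENCODE transcripts. Alternatives used DESeq2 1.42.0 and limma 3.58.1. The fit was run on simulated data in which few genes changed and no length trend was built in. In the real data 86% of tested genes were called, so the simulation cannot check the scaling or the length trend. Same-numbered libraries did not deviate together (r of -0.003, -0.004 and -0.03).

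The members, lists and tests were chosen with earlier results of these data known. Genes named are every mt- gene, the 3 highest and 3 lowest nuclear members per complex, those called against the majority, the isoform pairs and the 2 genes with the smallest p in each list. Ndufv1, Ndufv2, Ndufb9, Ndufa7, Ndufb10, Uqcrq, Atp5c1, Atp5g1, Atp5g2 and Cox5b were added for their roles or size after their values were seen. The values of 1 member are not reported here, though it is in the counts.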

Additional observations from a re-analysis of the deposited data

How the results depend on the processing

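Depth limits mainly the low mitochondrial genes and isoforms, and 3 libraries a group cannot give an exact p under 0.1. With a 1.5-fold minimum, 24 members were lower and 1 higher (mitochondrial 2 and 0, nuclear 22 and 1). With the length trend removed, 18 were lower and 49 higher (mitochondrial 2 and 6, nuclear 16 and 43), and reversed values were 0.28 for mt-Nd3, 0.38 for mt-Nd6, 0.21 for mt-Cytb, 0.32 for mt-Co1, 0.34 for mt-Atp6, 0.37 for Sdhb, 0.20 for Uqcr10, 0.44 for Uqcrb, 0.19 for Cox5b-ps, 0.076 for Atp5h, 0.049 for Cox6a1, 0.59 for Cox6b1, 0.75 for Cox7a2 and 0.63 for Cox8a. With upper quartile scaling 6 members (4 nuclear) were higher, and Uqcrc1 stood at -0.18, Uqcrfs1 at -0.15, Uqcrc2 at -0.15, Cox6c at -0.13, Cox5a at -0.059, Atp5k at -0.039, Atp5g3 at -0.16 and Ndufa4 at -0.21. limma on log2(FPKM + 1), + 0.1 and + 5 gave -0.043, -0.044 and -0.041 for Uqcrc1, -0.015, -0.015 and -0.015 for Uqcrfs1, -0.012, -0.013 and -0.011 for Uqcrc2, -0.025, -0.025 and -0.024 for Atp5g3, and -0.078, -0.079 and -0.076 for Ndufa4. Cox7a2 turned to 0.016 with no filter on low counts, and ranged between -0.023 and 0.027 without 1 library, turning without overexpression replicate 2 or control replicate 2. The cause of these changes was not tested, beyond what each setting takes out by construction.

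The difference of the mitochondrial to nuclear log2 ratio (overexpression minus control) was 0.15 without mt-Co1, 0.27 without the mt- genes with a nuclear copy (chosen after seeing the data) and 0.24 with summed FPKM. That of the mt- share was -0.11 percentage points without mt-Co1, -0.011 without the copied genes and 0.19 with summed FPKM, and -0.45 for the mean log2 CPM per gene. That of the nuclear share was -0.22 with summed FPKM and -0.45 for the mean log2 CPM. Leaving out 1 library at a time gave 52 to 56 members lower and 13 to 17 higher, 5 to 8 mitochondrial ones lower and 2 to 4 higher, and 47 to 49 nuclear ones lower and 11 to 13 higher. It gave 0.02 to 0.10 for the ratio, -0.35 to -0.24 for the mt- share and -0.18 to -0.17 for the nuclear share. With replicate number as a block, 55 members were lower and 15 higher, although the numbers do not pair the libraries. Of 68 named genes, 31 kept call and direction under all 19 alternatives. The 68 hold the list genes, which were picked for the smallest p in these same data and mostly kept both. The count therefore overstates how steady the named subunits were. Subunits that kept call and direction throughout include Ndufv3, Cox7a2l, Ndufa6, Ndufb11, Ndufs1, Uqcrh, Cox4i1 and Atp5d.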
